A study of Danio rerio with 12 samples.

Results

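The genes described here encode UDP-glucuronosyltransferases (symbols starting with ugt) and cytosolic sulfotransferases (symbols starting with sult) in the liver of adult zebrafish. They were chosen by symbol, as every row whose name has ugt or sult followed by a digit. The table held 59 such rows among 14581 genes, 44 ugt and 15 sult. Of these, 48 had at least 1 FPKM (a fragment count divided by transcript length and library size) in at least 3 of the 12 libraries, 36 ugt and 12 sult, among 9190 genes that passed this filter. The 48 genes are described over 4 groups of 3 libraries. All groups were livers of wild-type fish treated daily for 6 weeks from an age of 3 months after fertilization, each fish housed alone: males given β-estradiol, males given DMSO, females given β-estradiol and females given DMSO. β-Estradiol is the main ovarian estrogen and DMSO was its solvent. The design asks what estradiol changed in the liver of each sex and how the sexes differed under each treatment.

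Both families make small fat-soluble molecules easier to excrete. Glucuronosyltransferases sit in the endoplasmic reticulum and attach glucuronic acid, taken from UDP-glucuronic acid, to steroids, bilirubin, bile acids and foreign chemicals. Sulfotransferases work in the cytosol and attach sulfate, taken from the donor PAPS, to phenols, thyroid hormones and steroids, estrogens among them. Liver is a main site of both reactions, and the conjugates leave the cell through membrane transporters. In fish the ugt1 and ugt2 families stand beside a ugt5 family that has no mammalian counterpart.

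Several ugt genes lie in clusters whose members share later exons behind separate first exons, so fragments from the shared part can be assigned to the wrong member. Of the 48 genes, 25, all ugt, overlapped another listed ugt gene in the RefSeq gene table (assembly GRCz12tu), and 36 of the 48 had another ugt or sult row as a near neighbour. Values of single members of ugt1a, ugt1b, ugt5b and ugt5c, of ugt2a1 to ugt2a4, and of ugt5a1, ugt5a2 and ugt2b1 are therefore uncertain as to which member they belong to, and sums over overlapping genes are given beside them. Symbols of 45 of the 48 matched that table, and ugt2a6, ugt2b3 and ugt5b5p did not. The sult genes did not overlap, although sult1st1, sult1st2 and sult1st3 were neighbours, as were sult2st1 and sult2st2, and sult3st2 and sult3st3.

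The other 11 rows stayed below the filter. Among them, sult4a1 was listed at 0 in all 12 libraries. The gene ugt2b6 reached 2.25 FPKM in female DMSO replicate 2 and stayed under 1 FPKM in the other libraries. For the remaining 9 (sult1st7, sult5a1, ugt1a7, ugt1b2, ugt1b6p, ugt2b2p, ugt2b4p, ugt5a5 and ugt5g2) the highest value in any library was 0.932 FPKM, in ugt1b2. The genes just inside the filter were ugt1a6, ugt2b3, ugt5a3, ugt5a4 and ugt5b5p, with 4 libraries each at 1 FPKM or more.

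The libraries differed in ways that touch the results below. FPKM summed over all genes was 304905, 786203 and 561801 in male estradiol replicates 1 to 3, against 660052 to 731829 in male DMSO. In females it was 1217100, 485549 and 508597 with estradiol, against 791666 to 906620 with DMSO. The levels below were not rescaled to these sums. All 19 measured hepatocyte markers were at 1 FPKM or more in every library. Their mean level, as log2(FPKM + 1), was 7.90, 10.6 and 9.33 in male estradiol replicates 1 to 3, against 10.7 to 11.1 in male DMSO, and in females it was 8.32 to 9.32 with estradiol, against 10.01 to 10.35 with DMSO. Oocyte genes (18 measured) averaged 6.16, 1.72 and 5.34 in male estradiol replicates 1 to 3, against 0.0095 to 0.178 in male DMSO. In females they averaged 6.30, 0.0536 and 4.42 under estradiol, against 0.717 to 3.19 under DMSO. For exocrine pancreas genes (14) the range was 2.52 to 4.44 in male estradiol, against 7.27 to 7.82 in DMSO males. In estradiol females it was 1.14 to 4.11, against 6.14 to 8.32 in DMSO females. Intestine genes (18) averaged 4.89 and 5.33 in female DMSO replicates 1 and 2 and 1.03 to 2.38 in the other libraries. The library numbers in the sample names run separately for estradiol and DMSO, so any effect of the library run cannot be told apart from the treatment. In bulk liver, fewer cells of a type and less RNA per cell cannot be told apart either.

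**Figure D1:**
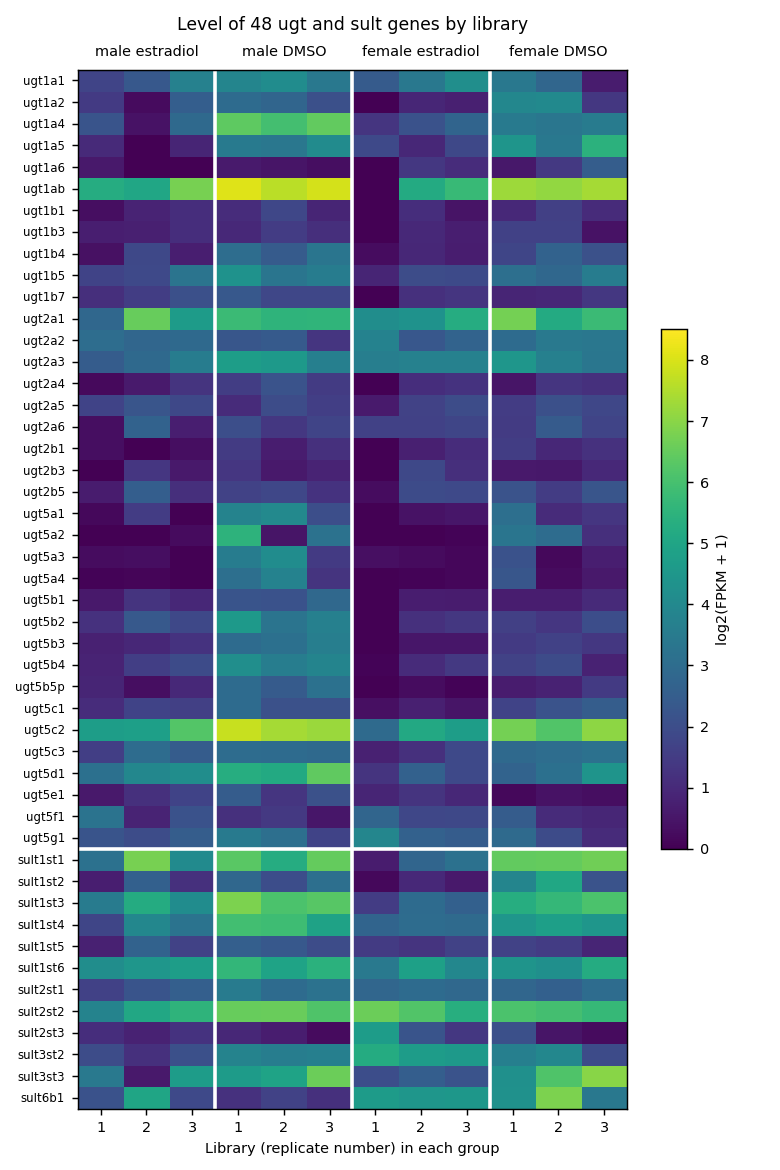
Level of the 36 ugt genes (above the horizontal white line) and 12 sult genes (below it) in each library, as log2(FPKM + 1), with 1 column per library and vertical white lines between the groups. Most ugt rows are darker in the estradiol libraries than in the DMSO libraries of the same sex, and 16 ugt genes are at 0 in female estradiol replicate 1.

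A few genes made up most of each family's level. In every group ugt1ab, whose span overlaps all other ugt1a genes, had the highest mean of the ugt family. It had 37.6, 31.8 and 108 FPKM in male estradiol, against 271, 197 and 248 FPKM in male DMSO. In females it had 0, 35.4 and 52.3 FPKM under estradiol, against 153, 139 and 162 FPKM under DMSO. In each sex every estradiol value lay below every DMSO value, but the log2 changes of -2.20 (SE 1.14, adjusted p = 0.235) in males and -3.61 (SE 1.14, adjusted p = 0.111) in females did not pass the threshold. The second gene in both DMSO groups was ugt5c2, with means of 176 ± 37.0 FPKM in male DMSO and 103 ± 30.1 FPKM in female DMSO (SD, n = 3 each). Together with ugt2a1, these genes held the 3 highest mean levels in the estradiol groups and in female DMSO. In male DMSO the third place was taken by ugt1a4.

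Among the sulfotransferases the leading gene differed from group to group. Mean levels were highest for sult1st1 in male estradiol (43.7 ± 55.2 FPKM), for sult1st3 in male DMSO (86.0 ± 23.3), for sult2st2 in female estradiol (69.1 ± 28.5) and for sult1st1 in female DMSO (91.5 ± 7.05 FPKM; SD, n = 3 each). Neighbours in these orders were often closer than their spread: sult2st2, second in male DMSO, had 85.0 ± 12.8 FPKM. The sult1st genes belong to the family that sulfates phenols and estrogens in vertebrates, and the sult2st genes to the family that sulfates hydroxysteroids.

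In males given estradiol, 13 of the 48 genes fell and none rose relative to males given DMSO (limma, Benjamini-Hochberg adjusted p under 0.05 over 9190 genes). Over all genes tested, 3.79% passed the threshold in either direction, 2.91% lower and 0.881% higher. At an unadjusted p under 0.05 there were 26 of the 48, against 26.9% of all genes. The 13 were 11 of 36 ugt genes and 2 of 12 sult genes. Of the 48, 43 had a log2 change below 0, against 40.6% of all genes tested, and their median log2 change was -1.20, against 0.21 for all genes. All male estradiol values lay below all male DMSO values for 26 of the 48, against 11.4% of all genes tested, and above them for 2 (ugt2a2 and sult6b1), against 18.5%. Under quantile normalization the median of all genes was -0.05 and that of the 48 was -1.47, and with median-of-ratios scaling they were 0.06 and -1.34.

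The count of 13 in males depended on single libraries. Leaving out male estradiol replicate 1 gave 6, beside 1.89% of all genes called. Without replicate 2 it was 21, beside 24.2%, and without replicate 3 it was 7, beside 2.79%. Leaving out male DMSO replicate 1 gave 4, beside 1.35% of all genes, replicate 2 gave 6, beside 1.61%, and replicate 3 gave 9, beside 2.07%. The calls of ugt1a4, ugt1a5, ugt5b3 and ugt5b5p held without any 1 of the 12 libraries and under every other alternative run on them. The filter of 5 FPKM removed ugt5b5p, so that alternative was not run on it. Among the 13, ugt5a3, ugt5a4, ugt5b1 and ugt5b5p passed the filter on low values only through male DMSO, which favours a fall. Without the oocyte-rich replicates 1 and 3 of both estradiol groups, replicate 2 alone stood for male estradiol. The median log2 change of the 48 was then -1.12, against 0.14 for all genes.

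**Figure D2:**
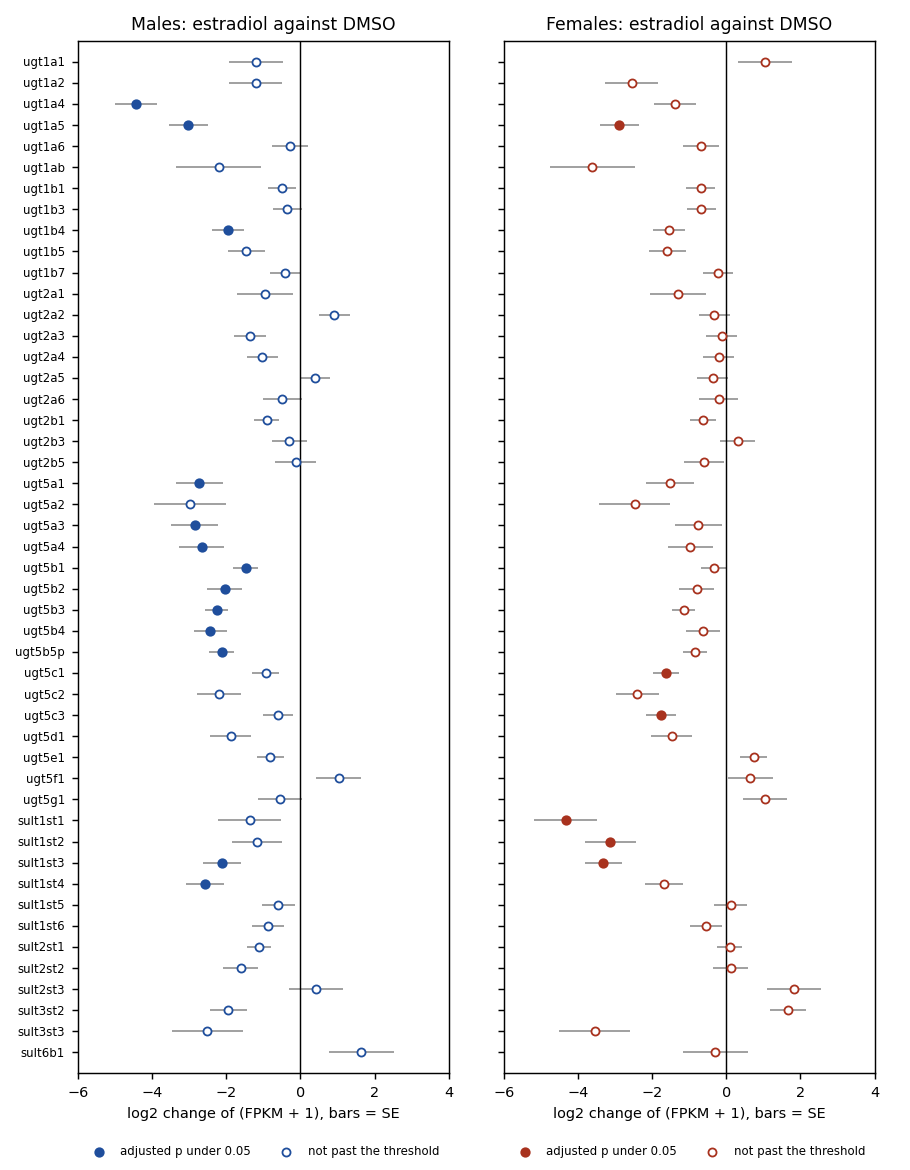
Log2 change of (FPKM + 1), estradiol against DMSO, for each of the 48 genes in males (left, blue) and females (right, red), with bars for the standard error and filled points for an adjusted p under 0.05. Filled points are all left of 0, 13 in males and 6 in females.

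All 5 measured ugt5b genes fell in males, though ugt5b1 and ugt5b5p passed the filter only through male DMSO. For ugt5b3 the male estradiol libraries had 0.703, 0.947 and 1.396 FPKM, against 6.93, 7.70 and 11.4 FPKM in male DMSO. Every male estradiol library was below every male DMSO library, and the log2 change was -2.25 (SE 0.31, adjusted p = 0.00259). For ugt5b4 the values were 0.817, 1.98 and 2.81 FPKM in male estradiol, against 17.3, 11.2 and 13.2 FPKM in male DMSO. These groups were also apart, with a log2 change of -2.42 (SE 0.45, adjusted p = 0.0118), which missed the threshold without male DMSO replicate 1 (adjusted p = 0.0700). The gene ugt5b5p, whose symbol marks a pseudogene, had 0.843, 0.241 and 0.976 FPKM in male estradiol, against 6.78, 4.39 and 7.93 FPKM in male DMSO. No male estradiol value reached the lowest male DMSO value, and the log2 change was -2.12 (SE 0.33, adjusted p = 0.00455).

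The other ugt5b genes showed the same order of groups in males. For ugt5b1 the range was 0.493 to 1.44 FPKM in male estradiol, against 3.42 to 6.33 FPKM in male DMSO (log2 change -1.48, SE 0.33, adjusted p = 0.0306). For ugt5b2 it was 1.32 to 4.24 FPKM in male estradiol, against 8.75 to 22.7 FPKM in male DMSO (log2 change -2.04, SE 0.48, adjusted p = 0.0369). Leaving out 1 library at a time kept the call of ugt5b1 in 5 of 12 fits, with adjusted p up to 0.101, and that of ugt5b2 in 4 of 12, with adjusted p up to 0.173. The sum over the 4 overlapping genes ugt5b1 to ugt5b4 was 3.34, 8.597 and 7.72 FPKM in male estradiol, against 50.6, 31.1 and 43.1 FPKM in male DMSO. That sum fell, with a log2 change of -2.55 (SE 0.56, adjusted p = 0.0268 over 9172 features), and its call held in 7 of 12 fits without 1 library.

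**Figure D3:**
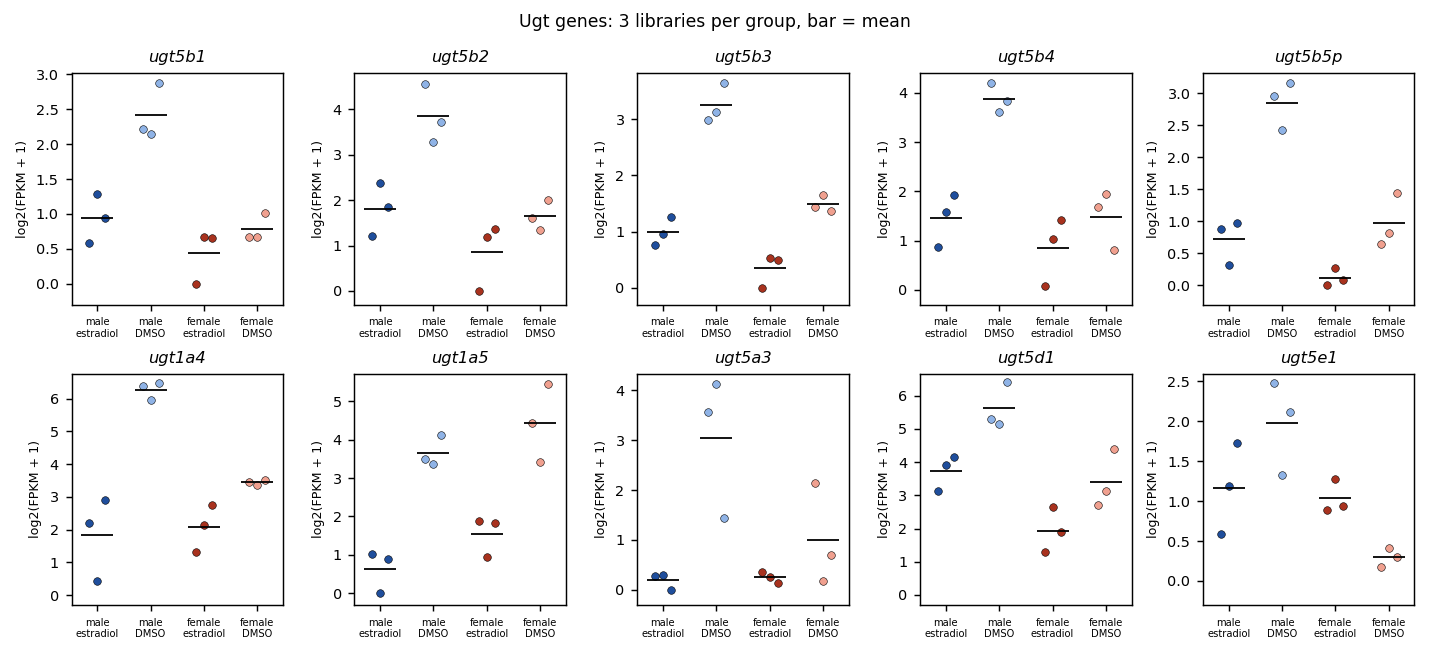
Levels of 10 ugt genes as log2(FPKM + 1), with 1 point per library, a bar at the mean of each group of 3, and male estradiol, male DMSO, female estradiol and female DMSO from left to right. For all 5 ugt5b genes the male DMSO points lie above the points of the other 3 groups.

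The ugt5a genes reached at most 1.83 FPKM in any estradiol library. For ugt5a3 the male estradiol libraries had 0.213, 0.234 and 4.60e-06 FPKM, against 10.8, 16.5 and 1.71 FPKM in male DMSO, and for ugt5a4 they had 0.0514, 0.0876 and 0 FPKM, against 7.69, 12.7 and 1.43 FPKM. The groups did not overlap, but male DMSO replicate 3 was far below the other DMSO males in both genes. In males ugt5a1 (log2 change -2.72, adjusted p = 0.0379), ugt5a3 (-2.85, adjusted p = 0.0294) and ugt5a4 (-2.66, adjusted p = 0.0350) fell. The remaining member, ugt5a2, had a log2 change of -2.98 (SE 0.96, adjusted p = 0.0975), with 1.10e-05, 0 and 0.197 FPKM in male estradiol, against 44.4, 0.393 and 8.20 FPKM in male DMSO. The sum of the overlapping pair ugt5a1 and ugt5a2 was 0.143, 1.83 and 0.197 FPKM in male estradiol, against 57.4, 15.4 and 11.3 FPKM in male DMSO. It fell (log2 change -3.86, SE 0.66, adjusted p = 0.00713), and the call held in all 12 fits without 1 library, though not without the 4 oocyte-rich libraries. Each of the 3 single calls was lost without male estradiol replicate 1 or 3 and without male DMSO replicate 1 or 2, with adjusted p up to 0.166 for ugt5a1, 0.135 for ugt5a3 and 0.148 for ugt5a4. Without female estradiol replicate 3 the calls of ugt5a1 and ugt5a4 were lost as well, and without female DMSO replicate 3 that of ugt5a1.

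Within the ugt1a cluster, ugt1a4 had the lowest log2 change of (FPKM + 1) of the 48 genes in males. It had 3.61, 0.346 and 6.53 FPKM in male estradiol, against 83.0, 61.0 and 87.4 FPKM in male DMSO. Every treated male was far below every control male, with a log2 change of -4.42 (SE 0.57, adjusted p = 0.00176). Its share of the summed ugt level was 0.150% to 2.86% in male estradiol, against 8.83% to 11.3% in male DMSO. For ugt1a5 the values were 1.03, 0 and 0.841 FPKM in male estradiol, against 10.2, 9.31 and 16.2 FPKM in male DMSO. It fell as well, with a log2 change of -3.02 (SE 0.52, adjusted p = 0.00726).

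Other genes of the ugt1 family moved less or varied more. In males ugt1a1, ugt1a2 and ugt1a6 had log2 changes of -1.20, -1.20 and -0.28, and their groups overlapped. The sum over the ugt1a cluster was 46.8, 36.4 and 133 FPKM in male estradiol, against 385, 290 and 365 FPKM in male DMSO, a log2 change of -2.48 (SE 0.70, adjusted p = 0.0738) that did not pass the threshold. Among the 5 measured ugt1b genes, ugt1b4 fell in males (log2 change -1.94, SE 0.43, adjusted p = 0.0298), with 0.313, 2.59 and 0.642 FPKM in male estradiol, against 7.18, 4.42 and 8.87 FPKM in male DMSO. That call was lost without male estradiol replicate 1 or 3, or without any of the male DMSO libraries, with adjusted p up to 0.128. The ugt1b sum had a log2 change of -1.45 (SE 0.53, adjusted p = 0.126).

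The ugt2 genes included no call in either sex. Their log2 changes in males ran from -1.35 for ugt2a3 to 0.92 for ugt2a2. For ugt2a2, 1 of the 2 genes whose male estradiol values were all above male DMSO, the libraries had 7.15, 5.97 and 6.56 FPKM in male estradiol, against 3.82, 4.31 and 1.48 FPKM in male DMSO (adjusted p = 0.192). The most abundant of them, ugt2a1, varied most within a group: 6.19, 91.5 and 24.6 FPKM in male estradiol, against 54.9, 45.0 and 46.7 FPKM in male DMSO. Male estradiol replicate 2 was above every male DMSO library and the other estradiol males were below them. As a share of the summed ugt level, the ugt2a genes made up 14.9% to 49.1% in male estradiol, against 8.53% to 11.6% in male DMSO.

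In the remaining ugt5 subfamilies the abundant genes had lower male estradiol values without passing the threshold. For ugt5c2 they were 25.4, 26.8 and 74.2 FPKM in male estradiol, against 219, 161 and 149 FPKM in male DMSO (log2 change -2.20, SE 0.59, adjusted p = 0.0607). For ugt5d1 they were 7.78, 14.2 and 16.9 FPKM in male estradiol, against 38.5, 34.6 and 84.2 FPKM in male DMSO (log2 change -1.88, SE 0.55, adjusted p = 0.0772). Neither gene had overlapping groups in males. The gene ugt5f1 went the other way in value, with 8.497, 0.817 and 3.39 FPKM in male estradiol, against 1.28, 1.68 and 0.434 FPKM in male DMSO, and its groups overlapped (log2 change 1.04, adjusted p = 0.287).

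Of the sulfotransferases, sult1st3 and sult1st4 fell in males. For sult1st4 the values were 2.41, 14.5 and 8.47 FPKM in male estradiol, against 60.1, 57.3 and 28.5 FPKM in male DMSO. The groups did not overlap and the log2 change was -2.57 (SE 0.51, adjusted p = 0.0158), which held in 10 of 12 fits without 1 library and missed the threshold when male DMSO replicate 1 or 2 was left out (adjusted p up to 0.0930). For sult1st3 the values were 10.7, 36.1 and 16.4 FPKM in male estradiol, against 112, 67.9 and 77.8 FPKM in male DMSO (log2 change -2.12, SE 0.51, adjusted p = 0.0387). That call held in 3 of 12 fits without 1 library, with adjusted p up to 0.177. The gene sult1st1 had 7.996, 107 and 15.8 FPKM in male estradiol, against 79.7, 37.6 and 88.3 FPKM in male DMSO, so male estradiol replicate 2 lay above every DMSO male. Its log2 change was -1.36 (SE 0.85, adjusted p = 0.319).

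Further sult genes had separate male groups without a call. The hydroxysteroid sulfotransferase sult2st2 had 13.0, 33.4 and 44.7 FPKM in male estradiol, against 91.0, 93.8 and 70.4 FPKM in male DMSO (log2 change -1.61, SE 0.48, adjusted p = 0.0814). For sult3st2 the values were 2.96, 1.28 and 3.19 FPKM in male estradiol, against 12.9, 11.1 and 11.6 FPKM in male DMSO (log2 change -1.94, SE 0.49, adjusted p = 0.0509). For sult6b1 the direction was opposite, with 3.46, 30.7 and 2.65 FPKM in male estradiol, against 1.32, 2.198 and 1.27 FPKM in male DMSO (log2 change 1.65, SE 0.87, adjusted p = 0.243). Its highest male value came from estradiol replicate 2.

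In females given estradiol, 6 of the 48 genes fell and none rose relative to females given DMSO, 3 ugt and 3 sult. Over all genes tested, 2.73% passed the threshold in either direction, 2.24% lower and 0.49% higher. At an unadjusted p under 0.05 there were 21 of the 48, against 19% of all genes. The median log2 change of the 48 was -0.68, against -0.08 for all genes, and 38 of the 48 were below 0, against 54.1% of all genes. Female estradiol lay wholly below female DMSO for 20 of the 48, against 18.8% of all genes tested, and wholly above for 2, sult3st2 and ugt5e1, against 9.98%. In both sexes the estradiol libraries lay below the DMSO libraries for 15 of the 48, and the joint share over all genes was not computed. The male and female comparisons share no library, but they share the estimate of the spread in the fit.

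The count in females depended on single libraries. It was 0 without the intestine-rich female DMSO replicates 1 and 2 together, a fit in which the single remaining DMSO female was assumed to vary like the other groups and in which the calls over all 9190 genes were 13, against 251 with all libraries. In that fit the median log2 change of the 48 was -0.715, against -0.03 for all genes, and 35 of them were below 0. Without the oocyte-rich libraries, replicate 2 alone stood for female estradiol, and this median was -0.48, against -0.28 for all genes. Leaving out female estradiol replicates 1, 2 and 3 in turn gave counts of 2, 2 and 4, beside 1.70%, 1.04% and 1.48% of all genes called. The medians of the 48 were then -0.41, -0.92 and -0.85, against -0.16, -0.01 and -0.06 for all genes. Leaving out female DMSO replicates 1, 2 and 3 in turn gave counts of 1, 2 and 4, beside 0.435%, 0.914% and 1.97%. Male libraries moved the count too, through the shared spread. Without male estradiol replicates 1, 2 and 3 it was 9, 12 and 3, beside 5.23%, 7.66% and 1.82% of all genes called. Without male DMSO replicates 1, 2 and 3 it was 4, 3 and 3, beside 1.45%, 1.45% and 1.44%.

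Among the 48 genes, the called ones with the lowest log2 changes in females were sult1st1, sult1st3 and sult1st2. For sult1st3 the values were 1.86, 6.91 and 5.15 FPKM in female estradiol, against 38.5, 49.3 and 67.6 FPKM in female DMSO. The groups were far apart, and the log2 change of -3.31 (SE 0.51, adjusted p = 0.00738) kept its call in all 12 fits without 1 library. For sult1st1 they were 0.559, 5.84 and 7.99 FPKM in female estradiol, against 87.0, 88.0 and 99.7 FPKM in female DMSO. Every estradiol female was below every DMSO female, and the log2 change of -4.33 (SE 0.85, adjusted p = 0.0233) was lost without female estradiol replicate 1 or any 1 of the female DMSO libraries (adjusted p up to 0.0862). For sult1st2 they were 0.141, 0.960 and 0.513 FPKM in female estradiol, against 13.8, 32.5 and 3.57 FPKM in female DMSO (log2 change -3.13, SE 0.68, adjusted p = 0.0368). The highest values of sult1st2 were those of the intestine-rich DMSO females, and its call held in 3 of 12 fits without 1 library. Without both of those females the log2 change of sult1st2 was -1.60 (adjusted p = 0.6002).

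A further pair of sult genes had separate female groups, with all estradiol values lower, and no call. For sult1st4 the values were 5.72, 7.06 and 6.62 FPKM in female estradiol, against 21.3, 26.6 and 20.9 FPKM in female DMSO (log2 change -1.68, SE 0.51, adjusted p = 0.102). For sult3st3 they were 3.03, 4.85 and 3.50 FPKM in female estradiol, against 18.05, 69.8 and 125 FPKM in female DMSO (log2 change -3.55, SE 0.96, adjusted p = 0.0740).

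Not all sulfotransferases had lower values in estradiol females. The values of sult2st2 were 95.7, 72.6 and 39.0 FPKM in female estradiol, against 66.7, 61.8 and 51.2 FPKM in female DMSO, and the groups overlapped (log2 change 0.12, SE 0.48, adjusted p = 0.910). For sult2st3 they were 25.1, 3.61 and 1.58 FPKM in female estradiol, against 3.20, 0.382 and 0.194 FPKM in female DMSO (log2 change 1.83, SE 0.72, adjusted p = 0.193). The sult1st genes made up 9.49% to 27.9% of the summed sult level in female estradiol, against 45.2% to 59.5% in female DMSO. The share of the sult2st genes was 35.6% to 60.2% in female estradiol, against 13.7% to 24.8% in female DMSO. In males the sult1st share overlapped between groups, at 46.0% to 72.9% in male estradiol, against 56.9% to 68.8% in male DMSO. These shares were not tested.

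**Figure D4:**
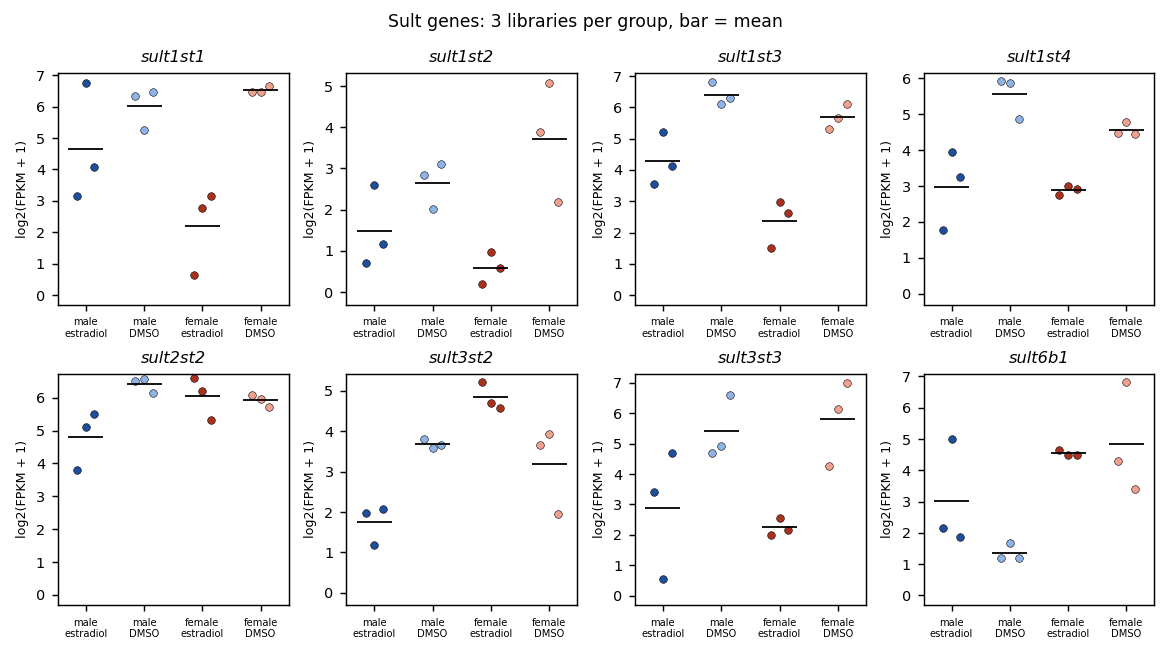
Levels of 8 sult genes as log2(FPKM + 1), with 1 point per library, a bar at the mean of each group of 3, and male estradiol, male DMSO, female estradiol and female DMSO from left to right. For sult3st2 the male estradiol points lie below male DMSO while the female estradiol points lie above female DMSO.

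Of the glucuronosyltransferases, ugt1a5, ugt5c1 and ugt5c3 fell in females. For ugt1a5 the values were 2.69, 0.920 and 2.55 FPKM in female estradiol, against 20.6, 9.65 and 42.6 FPKM in female DMSO (log2 change -2.88, SE 0.52, adjusted p = 0.0157). Together with sult1st3 it passed the threshold in both sexes. For ugt5c1 the range was 0.275 to 0.670 FPKM in female estradiol, against 2.297 to 4.75 FPKM in female DMSO (log2 change -1.62, SE 0.36, adjusted p = 0.0380). For ugt5c3 it was 0.706 to 2.64 FPKM in female estradiol, against 6.56 to 7.92 FPKM in female DMSO (log2 change -1.77, SE 0.41, adjusted p = 0.0415). No estradiol female reached a DMSO female in these 3 genes. The calls of ugt5c1 and ugt5c3 held in 3 of 12 fits each without 1 library, with adjusted p up to 0.118 and 0.138, and that of ugt1a5 was lost without female estradiol replicate 2 or female DMSO replicate 1.

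In females the sums over overlapping genes of ugt5c and ugt5a fell, while no single ugt5a gene passed the threshold (adjusted p = 0.224, 0.185, 0.528 and 0.411 for ugt5a1 to ugt5a4). The ugt5c sum was 7.61, 35.7 and 28.4 FPKM in female estradiol, against 113, 82.6 and 145 FPKM in female DMSO, and fell (log2 change -2.41, SE 0.56, adjusted p = 0.0456). The sum of ugt5a1 and ugt5a2 was 0, 0.348 and 0.488 FPKM in female estradiol, against 16.5, 8.12 and 2.79 FPKM in female DMSO, and fell (log2 change -2.75, SE 0.66, adjusted p = 0.0491). Both calls were marginal and held in 3 and 4 of 12 fits without 1 library. The ugt1a sum, at 8.598, 51.7 and 79.6 FPKM in female estradiol, against 208, 181 and 222 FPKM in female DMSO, did not pass the threshold (log2 change -2.57, SE 0.70, adjusted p = 0.0778).

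An exact 0 was common among ugt genes in 1 library. In female estradiol replicate 1, 16 of the 48 genes were listed at 0, all of them ugt, against 5.65% of all genes tested in that library. They included ugt1ab and 4 of the 5 ugt5b genes. In the other estradiol libraries 0 to 3 of the 48 were at 0, and in the DMSO libraries none was. An exact 0 can be a failed estimate in a table of this kind, and which of these zeros are low levels was not tested.

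Under DMSO, ugt5b genes were lower in females than in males. Of the 48 genes, 3 passed the threshold, all lower in females: ugt5b3 (log2 change -1.76, SE 0.31, adjusted p = 0.0265), ugt5b5p (-1.88, SE 0.33, adjusted p = 0.0269) and ugt5b4 (-2.40, SE 0.45, adjusted p = 0.0391). The filter on low values was passed by ugt5b5p only through male DMSO, which favours a lower value in females. Over all genes tested 0.555% passed in either direction, 0.316% lower and 0.239% higher in females. An unadjusted p under 0.05 was found for 14 of the 48, against 11.5% of all genes, and 31 of the 48 had a log2 change below 0, against 46.8%. For ugt5b3 the values were 1.71, 2.14 and 1.58 FPKM in female DMSO, against 6.93, 7.70 and 11.4 FPKM in male DMSO. All 5 ugt5b genes had every DMSO female below every DMSO male, and ugt5b1 and ugt5b2 had adjusted p of 0.0582 and 0.0702. As a share of the summed ugt level, the ugt5b genes held between 1.36% and 2.08% in DMSO females, against between 5.13% and 6.60% in DMSO males. In male estradiol this share was 2.78% to 3.82%. The sum over ugt5b1 to ugt5b4 did not pass the threshold between the sexes (log2 change -2.45, SE 0.56, adjusted p = 0.0830).

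These 3 sex differences under DMSO depended on single libraries. None of the 3 passed without female DMSO replicate 1 or 2 or without male DMSO replicate 1 or 3, and 1 of the 3 passed without male DMSO replicate 2 or female DMSO replicate 3. With male estradiol replicates 1, 2 and 3 left out in turn the count over the 48 genes was 5, 7 and 3. The shares of all genes called were 0.968%, 1.32% and 0.403%. With those of female estradiol left out the count was 6, 2 and 2, beside 1.26%, 0.413% and 0.446%. For male DMSO replicates 1, 2 and 3 it was 0, 1 and 1, beside 0.326%, 0.348% and 0.413% of all genes. For those of female DMSO it was 0, 0 and 2, beside 0.326%, 0.337% and 1.27%. It was also 0 without both intestine-rich DMSO females, a fit with 1 DMSO female and 12 calls over all genes, against 51 with all libraries. The median log2 difference of the 48 was -0.545 in that fit, with 34 of them below 0, against -0.54 and 31 with all libraries.

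Beyond ugt5b, all DMSO females lay below all DMSO males for 11 more of the 48 genes, making 16 in all, against 12.2% of all genes tested. One was ugt1a4, with 9.96, 9.198 and 10.5 FPKM in female DMSO, against 83.0, 61.0 and 87.4 FPKM in male DMSO (log2 change -2.83, SE 0.57, adjusted p = 0.0557). Another was ugt5d1, with 5.49, 7.85 and 20.02 FPKM in female DMSO, against 38.5, 34.6 and 84.2 FPKM in male DMSO (log2 change -2.21, SE 0.55, adjusted p = 0.107). Females were wholly above males for sult6b1 and ugt2a2, against 18.6% of all genes. For sult6b1 the values were 18.6, 111 and 9.67 FPKM in female DMSO, against 1.32, 2.198 and 1.27 FPKM in male DMSO (log2 change 3.48, SE 0.87, adjusted p = 0.109), and its highest value was in the most intestine-rich library. The hepatocyte list also had a median log2 difference of -0.93 between female and male DMSO, with 13 of 19 markers wholly lower in females and no call, and its part in the ugt and sult differences was not tested.

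Under estradiol 1 of the 48 genes differed between the sexes, against 0.109% of all genes tested, of which 0.0762% were higher and 0.0326% lower in females. It was sult3st2, with 36.5, 25.1 and 23.04 FPKM in female estradiol, against 2.96, 1.28 and 3.19 FPKM in male estradiol. Every estradiol female was above every estradiol male, with a log2 change of 3.09 (SE 0.49, adjusted p = 0.0367). The call held in 2 of 12 fits without 1 library, those without female DMSO replicate 2 or 3, with adjusted p up to 0.141 in the others. The log2 differences of the 5 ugt5b genes under estradiol ran from -0.96 to -0.49, and none passed the threshold. Over the 48 genes, estradiol females lay wholly above estradiol males for 4, against 2.62% of all genes tested, and wholly below for 6, against 9.68%. An unadjusted p under 0.05 was found for 9 of the 48, against 11.1%, and 29 of the 48 were below 0, against 67.1%.

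The difference between the female and the male effect of estradiol passed the threshold for none of the 48 genes (limma), against 0.261% of all genes tested (0.163% above 0 and 0.0979% below). At an unadjusted p under 0.05 there were 12 of the 48, against 10.7% of all genes, and 19 of the 48 had a difference below 0, against 64.4%. The smallest adjusted p belonged to sult3st2 (log2 difference of effects 3.60, SE 0.69, adjusted p = 0.0753), whose values were lower with estradiol in males and higher in females. In females sult3st2 had 36.5, 25.1 and 23.04 FPKM under estradiol, against 11.6, 14.2 and 2.88 FPKM under DMSO (log2 change 1.66, SE 0.49, adjusted p = 0.0953). For ugt1a4 the difference of effects was 3.05 (SE 0.80, adjusted p = 0.223), the male effect being the larger. For the 5 ugt5b genes it ran from 1.11 to 1.79 with adjusted p of 0.348 or more, so a male-specific effect was not shown. In females these genes reached at most 3.00 FPKM, where the 1 added before the log2 shrinks a change.

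**Figure D5:**
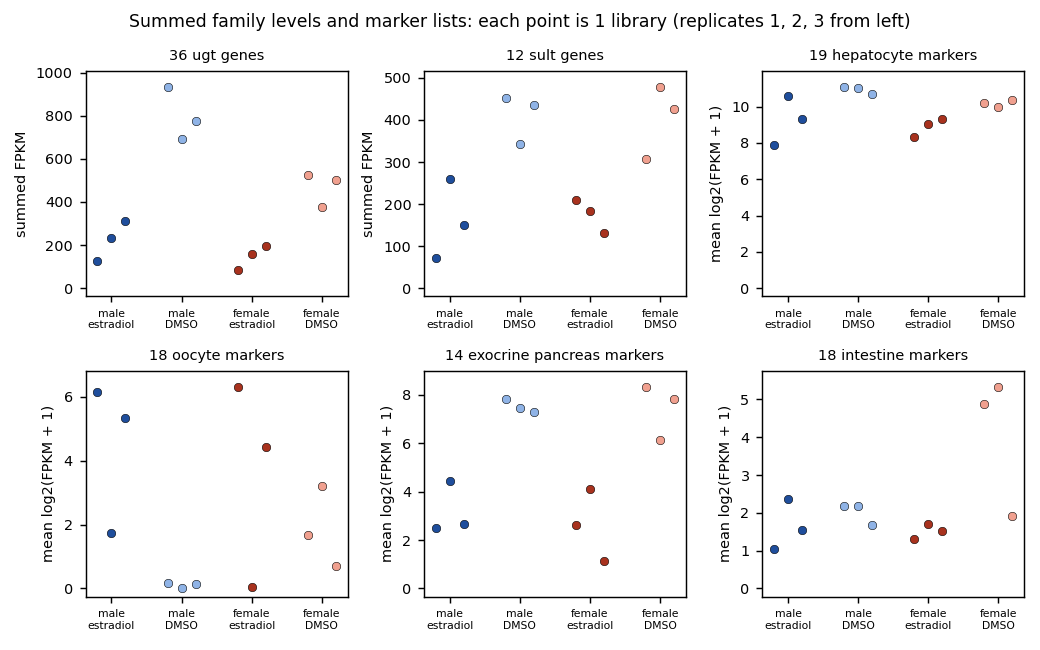
Summed FPKM of the 36 ugt and 12 sult genes and mean log2(FPKM + 1) of the hepatocyte, oocyte, exocrine pancreas and intestine marker lists, with 1 point per library and replicates 1 to 3 from left to right in each group. Both family sums, not rescaled to the FPKM of all genes, are lower in every estradiol library than in every DMSO library of the same sex.

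The summed levels of both families were lower in estradiol livers of both sexes. The ugt sum was 126, 231 and 313 FPKM in male estradiol, against 934, 691 and 773 FPKM in male DMSO, and 83.7, 160.5 and 197 FPKM in female estradiol, against 526, 378 and 503 FPKM in female DMSO. The sult sum was 71.6, 259 and 151 FPKM in male estradiol, against 453, 344 and 435 FPKM in male DMSO, and 211, 184 and 132 FPKM in female estradiol, against 307, 479 and 425 FPKM in female DMSO. In each sex the treated and control libraries did not overlap in these sums, which were not rescaled to the FPKM of all genes. That total was 485549 in female estradiol replicate 2, against 906620 in female DMSO replicate 1. Relative to it, the sult sum of that estradiol library lay above that of that DMSO library. The ugt sums, and the sult sums in males, stayed apart on this scale. The hepatocyte markers had a median log2 change of -1.38 in males, where 3 of 19 fell, and -1.08 in females, where 2 of 19 fell. Of all genes tested, 2.91% fell in males and 2.24% fell in females. The log2 change was below 0 for 18 of the 19 hepatocyte markers in males and 17 in females. Estradiol lay wholly below DMSO for 7 of the 19 in males and 14 in females, against 11.4% and 18.8% of all genes tested. The gene for the liver fatty acid binding protein, fabp10a, had a mean of 9911 ± 4950 FPKM in male estradiol, against 73492 ± 7629 FPKM in male DMSO (SD, n = 3 each), a log2 change of -2.99 (adjusted p = 0.00592). All 14 exocrine pancreas markers fell in males and 13 of 14 in females. The part of these shifts in the ugt and sult results was not tested.

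Genes that supply the sugar and sulfate donors had few calls. Of 6 genes for UDP-glucuronic acid supply none passed the threshold in either sex in limma, with 2 at an unadjusted p under 0.05 in males, against 26.9% of all genes tested, and 2 in females, against 19%. Of 7 genes for PAPS supply, none passed in males, against 3.79% of all genes tested and with 2 at an unadjusted p under 0.05, and 1 fell in females, against 2.73%: papss2a, which encodes a PAPS synthase. It had 1.88, 10.6 and 10.7 FPKM in female estradiol, against 68.7, 81.1 and 54.3 FPKM in female DMSO (log2 change -3.22, SE 0.62, adjusted p = 0.0211), which missed the threshold when female DMSO replicate 1 or 2 was left out. The groups were well apart. In males papss2a had 4.62, 20.9 and 5.46 FPKM under estradiol, against 33.8, 25.3 and 20.5 FPKM under DMSO, and the groups overlapped.

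Among 8 genes for transport of conjugates, 1 fell in each sex, where 3.79% of all genes tested passed the threshold in males and 2.73% in females. It was abcc4, an exporter of organic anions that carries steroid conjugates. It had 1.51, 1.48 and 0.787 FPKM in male estradiol, against 17.2, 5.19 and 13.3 FPKM in male DMSO (log2 change -2.39, SE 0.47, adjusted p = 0.0162), and in females the log2 change was -2.07 (adjusted p = 0.0415). The male call was lost without male estradiol replicate 3 or male DMSO replicate 1 or 3, and the female call held in 3 of 12 fits without 1 library. Of 6 genes for hydrolysis of conjugates and esters, 1 fell in males and 2 in females, beside the same shares of all genes. The gene ces3, a carboxylesterase, fell in both sexes (log2 change -2.86 in males, adjusted p = 0.0212, and -3.77 in females, adjusted p = 0.00803). In females sumf1, which activates sulfatases, fell as well (log2 change -1.81, adjusted p = 0.0360, held in 5 of 12 fits without 1 library). The male call of ces3 held in 7 of these 12 fits, and its female call in 11.

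Of 32 genes encoding regulators of conjugating enzymes, 1 rose and 2 fell in males, where 3.79% of all genes tested passed the threshold, and 1 fell in females, where 2.73% did. The fall of keap1a, which encodes an inhibitor of the stress-responsive factor Nrf2, was large: 1.83, 5.16 and 3.50 FPKM in male estradiol, against 62.3, 60.9 and 60.6 FPKM in male DMSO. No value of one group came near the other, and the log2 change was -3.86 (SE 0.40, adjusted p = 0.000365). The gene nfe2l2b, whose symbol marks a copy of the Nrf2 gene, also fell in males (log2 change -1.12, adjusted p = 0.0429, held in 3 of 12 fits without 1 library). It had 0.238 to 0.349 FPKM in male estradiol, against 1.47 to 2.48 FPKM in male DMSO. In females pparaa, a fatty acid receptor gene, fell (log2 change -2.50, adjusted p = 0.0141), which missed the threshold when female estradiol replicate 2 or female DMSO replicate 1 or 2 was left out.

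The estrogen receptor gene esr1 rose in males, with 4.40, 36.4 and 7.35 FPKM in male estradiol, against 1.35, 1.06 and 0.785 FPKM in male DMSO (log2 change 2.54, SE 0.60, adjusted p = 0.0382). Male estradiol replicate 2 was several times above the other treated males, and the call held in 4 of 12 fits without 1 library. In females the values were 10.3, 13.3 and 11.9 FPKM under estradiol, against 88.5, 37.0 and 65.5 FPKM under DMSO, so the groups were apart in the other direction. The effects differed between the sexes (log2 difference of effects -4.79, SE 0.85, adjusted p = 0.0442), a call that held in 3 of 12 fits without 1 library. Under DMSO esr1 was higher in females than in males (log2 change 4.89, SE 0.60, adjusted p = 0.00161), and this call held in all 12 fits without 1 library. Without both intestine-rich females the log2 change of esr1 was 5.02, with 1 DMSO female left, and it did not pass the threshold (adjusted p = 0.105).

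The last lists hold other conjugating enzymes. Of 11 Golgi sulfotransferases, which modify proteins and sugar chains and not small molecules, none passed the threshold in males in limma, against 3.79% of all genes tested, with 4 at an unadjusted p under 0.05, against 26.9%. In females 1 fell, against 2.73% of all genes: tpst1, the gene of a protein tyrosine sulfotransferase (log2 change -2.31, adjusted p = 0.0470, held in 2 of 12 fits without 1 library). Of 9 other transferases of conjugation, 3 fell in males and none in females, beside the same shares of all genes called, and in females 4 had an unadjusted p under 0.05, against 19% of all genes. The methyltransferase gene tpmt.1 had 3.80, 7.44 and 7.08 FPKM in male estradiol, against 20.3, 34.9 and 26.0 FPKM in male DMSO (log2 change -1.99, SE 0.35, adjusted p = 0.00758), which missed the threshold when male DMSO replicate 2 was left out (adjusted p = 0.0533). The other methyltransferase genes were tpmt.2 (log2 change -1.84, adjusted p = 0.0313) and the glycine methyltransferase gnmt (-2.20, adjusted p = 0.0402), held in 6 and 3 of 12 fits without 1 library.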

How the data were processed

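Per the submitters' processing notes, cutadapt, TopHat2 2.0.11 and Cufflinks 2.2.1 were used with the zebrafish genome build danRer7. Trizol RNA and a strand-keeping NEBNext kit were used, per the labels' protocols. The deposited table holds 1 FPKM value per gene and library. Its header names no unit, and FPKM was taken from the range of the values and the use of Cufflinks. The depth is unknown.

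Values were taken as log2(FPKM + 1). A gene was tested if 3 or more of the 12 libraries had 1 FPKM or more, which left 9190. The 4 group means were fitted with limma 3.58.1 in R 4.3.3 (eBayes with trend, 8 residual degrees of freedom). The 5 contrasts were estradiol against DMSO in each sex, females against males under each treatment, and the interaction. Benjamini-Hochberg adjustment ran over all genes tested, with a threshold of 0.05. Groups called apart or wholly above or below share no range. Tables and plots used Python 3.11.15, pandas 2.3.3, numpy 2.4.6 and matplotlib 3.10.9. Rows of overlapping ugt genes were also summed per locus and refitted among 9172 features, an alternative chosen after seeing the data.

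Whether libraries came from separate fish is not said in the labels, so the p-values cover only the spread between these libraries, which may be technical. The members and gene lists were chosen with earlier results of these data known. Every ugt or sult gene past the filter could be named, and of the other lists only genes past the threshold, at most 4 per list and contrast. Alternatives were another pseudocount, other filters, 2 other scalings, a fit of only the groups compared, a replicate block, and leaving out libraries. On simulated data for estradiol in males, over 5 runs with 9190 genes, 2.80% of genes with a log2 change of 1 were recovered. For changes of 2, 3 and 4 the share was 50.0%, 84.0% and 97.2%, and 5.95% of calls were false. The simulated noise was drawn separately for each gene and library. Shifts shared by many genes of a library were not simulated, so these shares may not hold for the real libraries. No sequence is shown.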

Additional observations from a re-analysis of the deposited data

Results flagged for a closer look

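The gene sult3st2 stood out because every male estradiol library lay below every male DMSO library while every female estradiol library lay above every female DMSO library. The difference between the female and the male effect was 3.60 on the log2 scale (SE 0.69) and did not pass the threshold (limma, adjusted p = 0.0753). The threshold was passed in 1 of 12 fits without 1 library and in 4 of 8 other alternatives run, with adjusted p from 0.0312 to 0.226 over the fits without 1 library.

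The estrogen receptor gene esr1 stood out because its estradiol effect differed between the sexes, by -4.79 on the log2 scale (SE 0.85, limma adjusted p = 0.0442). It was higher with estradiol in males and lower in females in every library. The call held in 3 of 12 fits without 1 library and in 3 of 8 other alternatives run.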

How the results depend on the processing

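Over all alternatives, 1670 single values were recomputed for 80 results, each 1 gene or summed locus in 1 comparison, marker genes included. All but sult3st2 for the interaction were chosen for having passed the threshold, and directions are given for these results alone. All 1670 kept their direction, 1145 kept their side of the threshold, 520 that had passed no longer did and 5 came to pass. In males the count of 13 of the 48 genes became 7 with a pseudocount of 0.1, 7 with no filter on low values, 6 with only the groups compared and 8 without the oocyte-rich libraries, and it ran from 4 to 21 without 1 library. In females the count of 6 became 3 with no filter, beside 1.38% of all genes called. Without 1 library it ran from 1 to 12, and the share of all genes from 0.435% to 7.66%. For females against males under DMSO the count of 3 became 0 with a pseudocount of 0.1, beside 0.370% of all genes called. It became 1 with a filter of 5 FPKM, beside 0.817%, and 9 with only the groups compared, beside 8.82%. Without 1 library it ran from 0 to 7, and the share of all genes from 0.326% to 1.32%. For females against males under estradiol the count of 1 became 0 with a pseudocount of 0.1 and with no filter. It was also 0 with only the groups compared and with the replicate block. The shares of all genes called were, in this order, 0.0871%, 0.0743%, 0% and 0.0435%. Without 1 library the count ran from 0 to 1, and the share of all genes from 0.0109% to 0.326%. For the interaction the count of 0 became 1 with a filter of 5 FPKM, with quantile normalization and with median-of-ratios scaling. The shares of all genes were 0.408%, 0.337% and 0.305%. Without 1 library the count ran from 0 to 1, and the share of all genes from 0.109% to 0.849%. The cause of these shifts was not tested. Apart from the male count without the oocyte-rich libraries, fits without the oocyte-rich or intestine-rich libraries are left out of these counts by comparison. All such fits kept 1 library in each estradiol group or in female DMSO, which was assumed to vary like the others.

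The numbers in the sample names did not pair all libraries. In no comparison did all 3 same-numbered pairs correlate above 0.1 in their deviations from the group means, nor did every library correlate best with its own number. Between the sexes under estradiol, replicates 1 and 2 correlated at 0.494 and 0.573 with their own numbers. The best correlations with other numbers were 0.205 and -0.248. Replicate 3 had 0.00905 with its own number, against 0.0625. With the replicate block the count was 13 in males, beside 3.38% of all genes called, and 5 in females, beside 2.03%. Between the sexes it was 3 under DMSO, beside 0.511%, and 0 under estradiol, beside 0.0435%. For the interaction it was 0, beside 0.218%. Depth is unknown, so no floor can be set for values near 0, and the 4 groups of 3 libraries left most changes of 1 on the log2 scale undetected on simulated data.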
